A study of Drosophila melanogaster with 12 samples.

Results

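The 79 genes here mostly encode subunits of the Drosophila melanogaster RNA polymerases or of the machinery that starts RNA polymerase II (Pol II) transcription. They were chosen by symbol alone, as the protein-coding genes whose name in the Ensembl BDGP6 annotation begins with Polr1, Polr2, Polr3, Taf and a number, MED and a number, or TfII. They are 7 Polr1, 13 Polr2, 10 Polr3, 15 Taf, 25 MED and 9 TfII genes, out of 13968 protein-coding genes. The measurement was chromatin immunoprecipitation followed by sequencing (ChIP-seq) with an antibody against Pol II phosphorylated on Serine 5 of its C-terminal domain (Pol II S5), in Kc167, a female hemocyte-like line derived from embryos. Each of 3 groups had 2 replicates, each immunoprecipitate with its own input, and all cells were nucleofected and collected 3 days later. Mock cells received neither dsRNA nor siRNA. AGO2 KD cells received 100 pmol of an siRNA against AGO2, the Argonaute protein of the siRNA pathway, and LaminB KD cells received 2 μg of dsRNA against Lam, which encodes the B-type lamin of the nuclear envelope. The comparisons ask where Pol II S5 lies over these genes and whether loss of either protein alters it.

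Pol I makes the ribosomal RNA precursor, Pol II makes mRNA, and Pol III makes tRNA and other short RNAs. All of their protein subunits are themselves made from Pol II transcripts, so each gene can carry Pol II S5. At a Pol II promoter TFIID, a complex of the TATA-binding protein and its associated factors (TAFs), binds first, TFIIA and TFIIB stabilise it, TFIIF brings in the polymerase, and TFIIE brings in TFIIH, whose kinase phosphorylates Serine 5. Mediator, the large complex of MED proteins, links activators to this assembly. Serine 5 phosphorylation is known as the mark of polymerase near the start of genes, where it often pauses in Drosophila.

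Core promoter sequences come first, because the promoters of these genes carried some short motifs, above all motif 1, more often than promoters in general. The window ran from 250 bases before to 50 bases after the annotated start, read 5′ to 3′ on the strand of the gene from the Release 6 plus ISO1 MT genome of RefSeq, which is dm6. Motif 1 (GGTCACACT, searched on both strands) occurred in 21 of the 79 windows (26.6%), against 6.04% of all 13968 windows and 12.3% of the 5559 windows of genes with a promoter peak in all 6 libraries. It occurred in 9 MED, 5 Polr3, 4 Polr2 and 3 Taf windows and in no Polr1 or TfII window. The DRE (TATCGATA, both strands) occurred in 12 windows (15.2%) against 9.36% of all and 17.1% of the occupied set, and motif 6 (GGTATTTT, both strands) in 8 (10.1%) against 5.26% and 8.98%. The initiator letters TCAGT (gene strand only) occurred in 16 windows (20.3%) against 36.0% and 29.2%, GAGAG (both strands) in 15 (19.0%) against 29.7% and 28.3%, TATAAA (gene strand only) in 24 (30.4%) against 32.1% and 29.4%, and the E-box CAGCTG (both strands) in 14 (17.7%) against 17.6% and 20.5%. None of these words contains another, and a match is a description of the letters only. In the sequences below, capitals mark matches to motif 1, the DRE, motif 6, TATAAA and CAGCTG. The first is the promoter of Polr2A (chrX:11570277-11570576, minus strand), the gene of the protein that the antibody recognises. Polr2L (chr3R:24717261-24717560, plus strand), Polr3A (chrX:15762706-15763005, plus strand), Taf1 (chr3R:6646639-6646938, plus strand) and MED20 (chr2L:8072799-8073098, minus strand) each hold motif 1. TfIIA-S-2 (chrX:1011594-1011893, minus strand) had no peak in any library, as had Taf12L among the members, and its window holds none of these 5 motifs.
Polr2A promoter: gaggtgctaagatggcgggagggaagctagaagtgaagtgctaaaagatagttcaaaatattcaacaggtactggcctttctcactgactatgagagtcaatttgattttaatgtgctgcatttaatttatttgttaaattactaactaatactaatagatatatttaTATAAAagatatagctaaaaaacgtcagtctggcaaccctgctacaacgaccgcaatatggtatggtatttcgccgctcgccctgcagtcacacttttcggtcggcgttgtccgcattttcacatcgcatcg
Polr2L promoter: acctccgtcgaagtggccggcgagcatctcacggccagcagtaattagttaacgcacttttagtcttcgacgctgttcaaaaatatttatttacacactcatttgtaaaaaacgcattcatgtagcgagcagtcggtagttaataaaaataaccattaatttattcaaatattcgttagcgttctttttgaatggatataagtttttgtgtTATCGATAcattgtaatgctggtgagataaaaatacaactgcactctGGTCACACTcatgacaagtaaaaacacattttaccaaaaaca
Polr3A promoter: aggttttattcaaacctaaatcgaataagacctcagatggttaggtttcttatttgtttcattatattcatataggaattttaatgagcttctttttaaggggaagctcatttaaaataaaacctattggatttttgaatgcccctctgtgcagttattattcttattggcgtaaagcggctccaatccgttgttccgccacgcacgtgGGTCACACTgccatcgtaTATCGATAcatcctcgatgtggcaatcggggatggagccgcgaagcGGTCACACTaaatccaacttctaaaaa
Taf1 promoter: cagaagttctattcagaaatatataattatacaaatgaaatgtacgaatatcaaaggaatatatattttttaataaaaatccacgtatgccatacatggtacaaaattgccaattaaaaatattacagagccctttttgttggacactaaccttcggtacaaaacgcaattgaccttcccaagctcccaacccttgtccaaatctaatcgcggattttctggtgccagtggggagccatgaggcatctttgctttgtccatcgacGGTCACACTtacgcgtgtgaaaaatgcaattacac
MED20 promoter: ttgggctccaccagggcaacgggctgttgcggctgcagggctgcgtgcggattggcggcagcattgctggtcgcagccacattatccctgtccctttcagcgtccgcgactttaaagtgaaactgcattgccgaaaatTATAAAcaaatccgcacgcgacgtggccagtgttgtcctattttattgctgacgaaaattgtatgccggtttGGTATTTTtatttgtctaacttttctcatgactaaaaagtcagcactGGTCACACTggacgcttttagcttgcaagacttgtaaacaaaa
TfIIA-S-2 promoter: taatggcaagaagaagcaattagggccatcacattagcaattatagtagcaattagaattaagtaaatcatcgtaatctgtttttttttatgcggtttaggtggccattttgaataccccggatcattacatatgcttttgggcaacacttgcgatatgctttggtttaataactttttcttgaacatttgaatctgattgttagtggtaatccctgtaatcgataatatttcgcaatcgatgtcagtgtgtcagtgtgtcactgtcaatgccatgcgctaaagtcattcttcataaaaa

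The libraries differed widely in how much was called. The 6 peak lists held 5108 to 8541 regions covering 4.19 to 14.6 Mb, and both extremes were LaminB KD libraries, replicate 1 the widest and replicate 2 the narrowest. The lists give no read depth and are not scaled to one another, so values for LaminB KD are given per library. Neither knocked-down gene was separated from mock in its own Pol II S5: AGO2 had a covered share of 7.20% and 7.39% in mock and 6.67% and 9.97% in AGO2 KD, and Lam had 72.5% and 77.4% in mock and 82.5% and 23.5% in LaminB KD. Both agents act on RNA, so these values do not measure the knockdown, which the labels state was checked by Western blot. Of 8 hemocyte markers, 6 (srp, Hml, Pxn, Col4a1, vkg and ush) had a promoter peak in all 6 libraries and NimC1 had none. No marker of 4 for neurons or 4 for muscle had one in all 6, but 1 of 4 for germline, nanos, did. Each mock library had a promoter peak at 2 neuron markers and 1 muscle marker, beside 6 and 7 hemocyte markers in replicates 1 and 2.

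Nearly every one of the 79 genes carried Pol II S5 at its promoter. A promoter peak means at least 1 bp of a called region within 500 bp either side of an annotated transcript start. Mock replicates had one at 76 and 77 members (96.2% and 97.5%), against 50.0% and 51.8% of all protein-coding genes. AGO2 KD had 73 and 75 against 45.4% and 48.8%, and LaminB KD had 77 and 60 against 55.4% and 40.6%. A peak was present in all 6 libraries at 60 members (75.9%), against 39.8% of all protein-coding genes. These were all 13 Polr2 genes, 9 of 10 Polr3, 11 of 15 Taf, 7 of 9 TfII, 5 of 7 Polr1 and 15 of 25 MED genes.

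**Figure D1:**
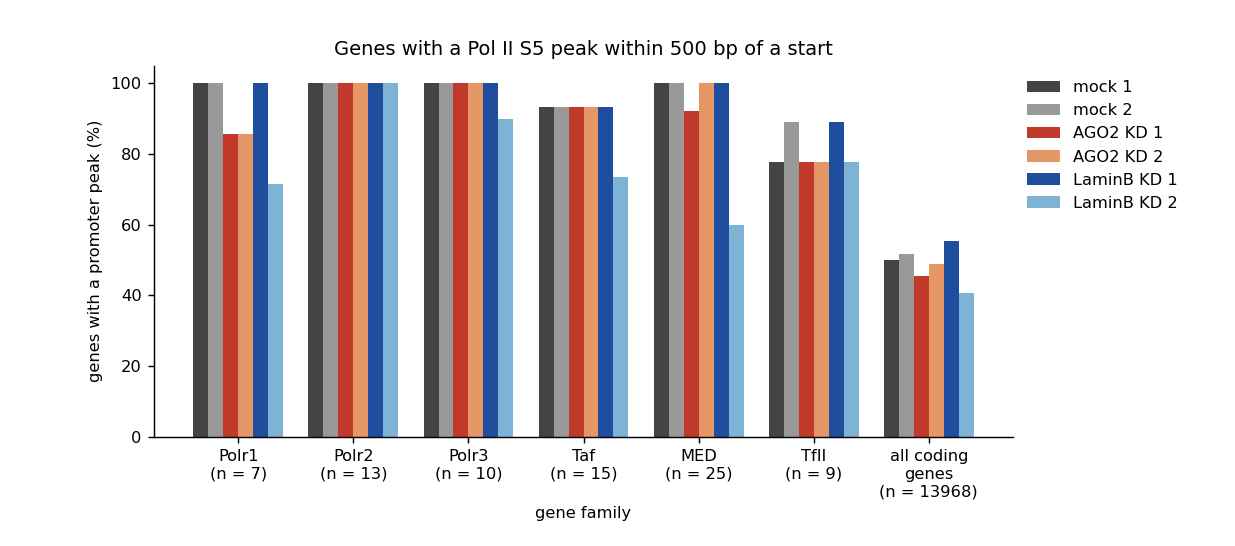
Percentage of genes with a Pol II S5 peak within 500 bp of an annotated start, by gene family and library, one bar per library. All 13 Polr2 genes have one in every library, and LaminB KD replicate 2 has one at 15 of 25 MED genes.

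The members were short and lay in crowded places, which bears on every value below. Their median length was 1330 bp against 2164.5 bp for all protein-coding genes. Another gene started within 1000 bp on the opposite strand, pointing away, at 48 of 79 (60.8%), against 31.2% of all genes and 50.7% of the 5559 genes with a promoter peak in all 6 libraries. In mock replicate 1 the promoter peak also held the start of another gene at 58 of 76 members (76.3%) against 54.2% of genes with such a peak, so that the peak cannot be assigned to one of both genes. Taf10 and Taf10b, 2 members that encode paralogous TAFs, start 45 bp apart and share a single peak in the 5 libraries that have one, and MED20 starts 47 bp from Trf, which encodes a relative of the TATA-binding protein. MED31 with slx1, Polr2D with Ada2a, and Polr3K with Tcs1 share an annotated start, 0 bp apart.

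Covered share denotes how much of a gene's length, in percent, lay under called regions. Its median over the members was 63.7% and 78.1% in mock cells, 33.1% and 66.7% after AGO2 KD, and 100% and 20.7% after LaminB KD. For the 5559 genes with a promoter peak in all 6 libraries it was 32.2% and 46.3%, 18.1% and 31.2%, and 68.6% and 13.1% in the same order. Over all protein-coding genes it was 0% and 0.912% in mock. Members covered over their whole length numbered 22 and 28 in mock, 10 and 18 after AGO2 KD, and 40 and 5 after LaminB KD. These were 27.8% and 35.4%, 12.7% and 22.8%, and 50.6% and 6.33% of the members. Over all protein-coding genes the shares were 6.94% and 8.74%, 3.79% and 5.61%, and 13.3% and 2.12% in the same order. Among the 5559 genes they were 16.1% and 19.9%, 9.28% and 13.5%, and 28.9% and 5.32%. Coverage was high just inside the gene: 150 bp downstream of the start, 91.1% and 92.4% of the members were under a peak in mock, 82.3% and 89.9% after AGO2 KD, and 92.4% and 57.0% after LaminB KD. At 1000 bp, among the 55 members that long, these values were 49.1% and 61.8%, 29.1% and 49.1%, and 83.6% and 30.9%.

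**Figure D2:**
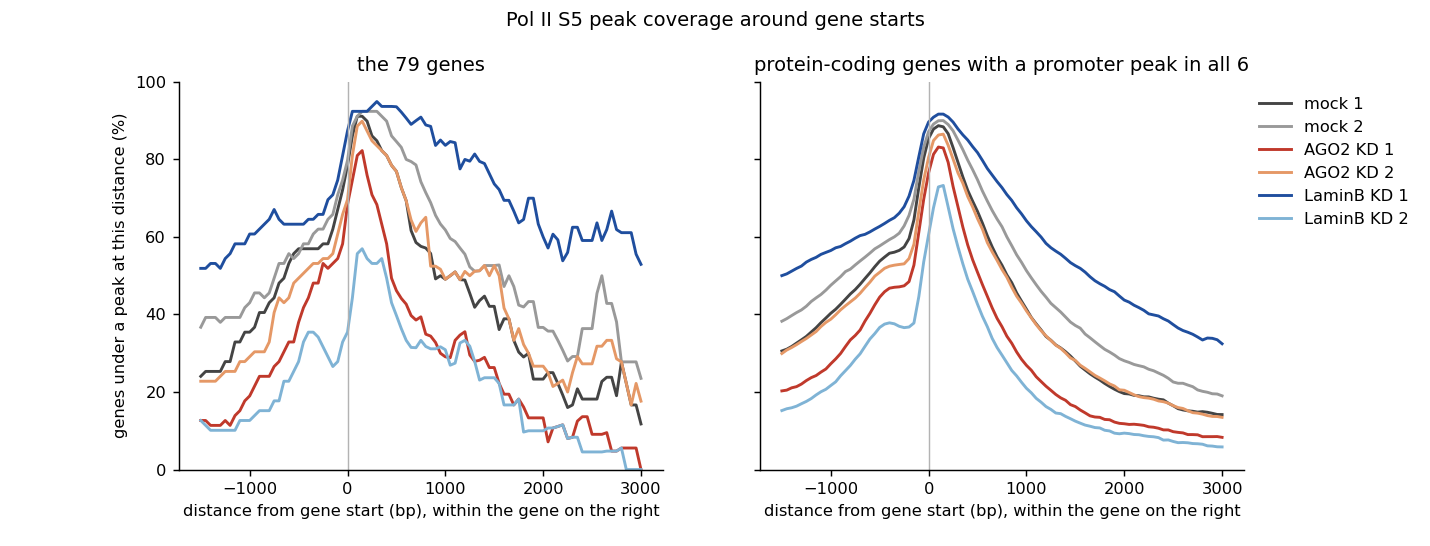
Percentage of genes under a Pol II S5 peak at each distance from the gene start in bp, one line per library, for the 79 genes (left) and for protein-coding genes with a promoter peak in all 6 libraries (right). All 12 lines peak close to the start, inside the gene, and LaminB KD replicate 1 is the highest line over most of the range.

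Occupancy was common, but its fold was modest. The fold compares reads in the immunoprecipitate with the background around the region, as a ratio, and each promoter peak was ranked by it within its own library among protein-coding genes with a promoter peak. The median percentile of the members was 38.6 and 44.7 in mock, 36.6 and 40.4 after AGO2 KD, and 39.9 and 48.4 after LaminB KD, below the middle in each. In the mock replicates TAF genes had the highest median percentiles, 63.1 and 66.8, and MED genes the lowest, 20.9 and 34.6, with Polr2 genes at 48.5 and 40.1. The order of the families differed in other libraries. In AGO2 KD the TAF medians were 38.7 and 53.7, the MED medians 39.6 and 41.1 and the Polr2 medians 45.8 and 46.0, and Polr3 was lowest in replicate 1, at 19.9. In LaminB KD the TAF medians were 42.2 and 59.7, the MED medians 30.3 and 52.9 and the Polr2 medians 48.5 and 37.4. A gene of high rank in both mock libraries was TfIIA-S, the small subunit of TFIIA, with a fold of 6.67 and 5.56 in mock, at percentiles 97.7 and 91.2. Taf4, which encodes a scaffold subunit of TFIID, had 5.49 and 5.59 at percentiles 91.4 and 91.6. MED15, a Mediator tail subunit that binds activators, had the lowest rank in mock replicate 1, with a fold of 2.03 there and 2.15 in replicate 2.

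**Figure D3:**
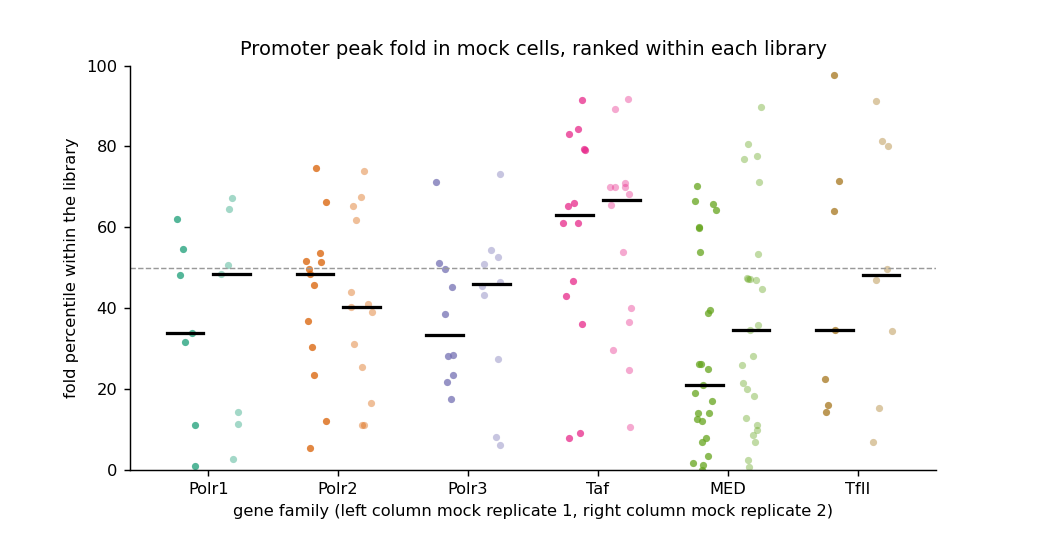
Percentile of each gene's promoter peak fold within its mock library, from 0 to 100, by gene family. Points are genes, the left column is mock replicate 1 and the right replicate 2, black bars are medians and the dashed line is the 50th percentile. The Taf medians, 63.1 and 66.8, lie above the line and the MED medians, 20.9 and 34.6, below it.

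A gene is called lower (or higher) in a knockdown when both knockdown libraries lay below (or above) both mock libraries, and in AGO2 KD 23.8% of all protein-coding genes were lower and 0.251% higher. The Pol II genes themselves carried a promoter peak throughout. Polr2A (chrX:11562800-11570326), which encodes the largest subunit and carries the C-terminal domain, had a covered share of 77.7% and 79.9% in mock cells, 33.1% and 89.9% after AGO2 KD, and 91.5% and 25.0% after LaminB KD. Both knockdown groups straddled mock, with replicate 1 of AGO2 KD and replicate 2 of LaminB KD the low libraries. Its promoter fold reached 6.55 in AGO2 KD replicate 1, where the region over the start was only 956 bp wide, against 3.85 and 4.15 over regions of 3764 and 4944 bp in mock. Polr2B (chr3R:14125791-14130111), the second large subunit that closes the active centre, stood at 55.3% and 73.7% in mock and at 25.0% and 25.8% in AGO2 KD. Its LaminB KD replicates gave 100% and 17.3%. The AGO2 KD libraries were both below mock and close to each other. What was missing lay mostly in the body of Polr2B, since a region of 1289 and 761 bp remained near its start.

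Among the small subunits, Polr2C and Polr2F were wholly covered in every library. Polr2C belongs to the assembly platform of the enzyme, and Polr2F is shared by Pol I, II and III. Polr2H, another shared subunit, was at 100% in all but LaminB KD replicate 2, where it was at 59.2%. The shared subunit gene Polr2L (chr3R:24717511-24717998) had 100% in both mock libraries, 92.6% and 97.7% after AGO2 KD, and 100% and 80.7% after LaminB KD. Polr2E, the fourth of these, ranged from 93.4% to 100% and its AGO2 KD values, 93.8% and 95.8%, lay just under the mock values of 96.5% and 100%. Polr2K, the last of the shared subunits, had 80.1% and 67.4% in mock against 72.6% and 66.7% in AGO2 KD, an overlap. Of these small subunits only Polr2L and Polr2E had both AGO2 KD values below both mock values, by a few points.

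The stalk of Pol II is formed by the Polr2D and Polr2G products. Polr2D had 25.5% and 40.6% in mock cells, 19.7% and 53.0% after AGO2 KD, and 100% and 0% after LaminB KD. Polr2G had 57.8% and 56.1% in mock and 47.0% and 50.8% in AGO2 KD, both below mock. Polr2J, the partner of Polr2C in assembly, overlapped between mock (73.8% and 77.2%) and AGO2 KD (72.2% and 75.7%). So did Polr2I, a subunit linked to transcript fidelity, with 46.1% and 53.7% against 35.6% and 49.7%. Polr2M, whose human counterpart associates with Pol II and makes it dependent on Mediator, had 51.4% and 64.0% in mock against 26.0% and 60.0%. In LaminB KD replicate 2 Polr2J and Polr2D were at 0% while keeping a peak within 500 bp of a start.

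**Figure D4:**
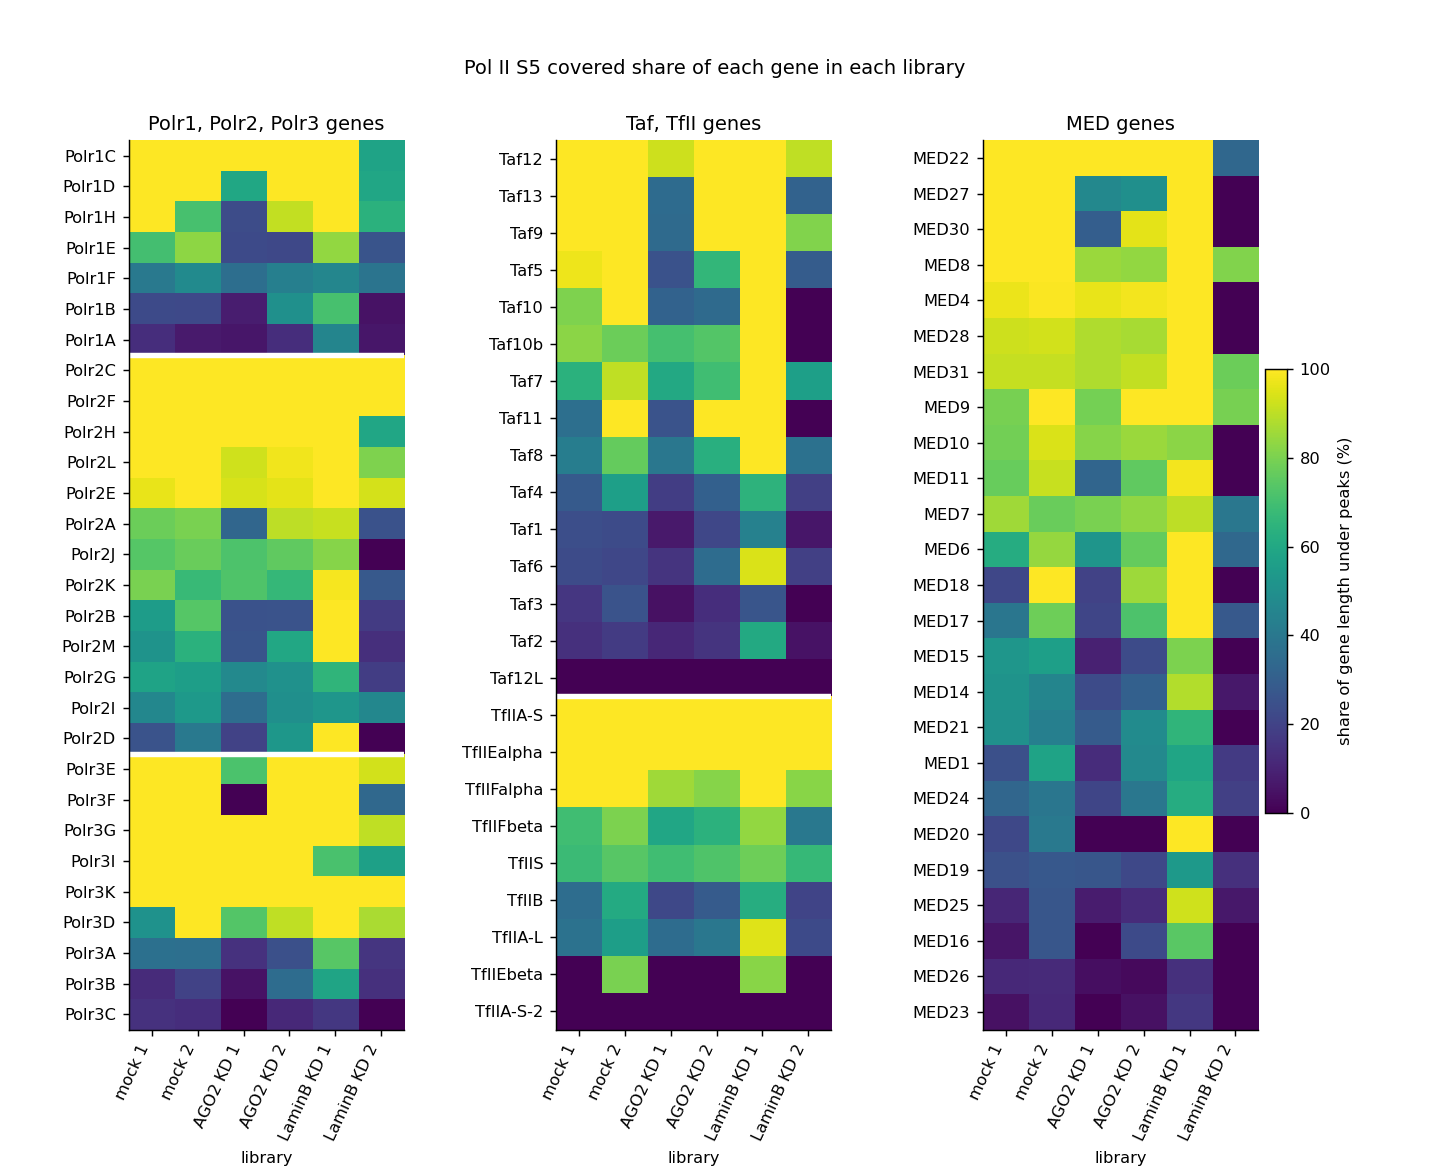
Share of each gene's length under Pol II S5 peaks, in percent from 0 (dark) to 100 (yellow), for 78 of the 79 genes in the 6 libraries, with families separated by white lines. Polr2C, Polr2F, Polr3K, TfIIA-S and TfIIEalpha stay at 95% or more in all 6 columns, and Taf12L and TfIIA-S-2 are at 0% in all 6.

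Among the Pol I genes, Polr1E (chr3R:18300195-18301728), whose yeast counterpart belongs to a heterodimer particular to Pol I, was among the members most widely separated in AGO2 KD. It was covered over 70.1% and 83.1% in mock cells, 22.5% and 21.7% after AGO2 KD, and 83.7% and 26.1% after LaminB KD. In every library a single region began beyond the 3′ end of the gene, and it ended inside the gene at position 18301270 and 18301468 in mock but at 18300539 and 18300527, farther from the start, in AGO2 KD. No library had a region over the start base itself. The 2 largest Pol I subunits, Polr1A and Polr1B, were thinly covered in mock, at 13.0% and 7.06% and at 22.5% and 22.0%. Polr1C and Polr1D, which Pol I and Pol III share, were both wholly covered in mock. Polr1C remained so in AGO2 KD, where Polr1D had 59.4% and 100%. Polr1F, the stalk subunit, was steady, between 36.2% and 47.9% over all 6 libraries. Polr1H, a small subunit for RNA cleavage, had 100% and 70.9% in mock but 23.1% and 91.0% in AGO2 KD, with AGO2 KD replicate 1 alone below mock.

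The Pol III genes had median covered shares of 75.6% and 100% in mock cells, next to 77.7% and 77.2% for the Pol II genes. Polr3K, which encodes the RNA cleavage subunit, was wholly covered in all 6 libraries. Polr3A (chrX:15762956-15769514), the largest subunit, had 36.9% and 36.5% in mock cells, 14.1% and 24.5% after AGO2 KD, and 74.0% and 15.5% after LaminB KD. Polr3C, part of the initiation trimer of Pol III, had 14.1% and 13.2% in mock cells, 0% and 11.6% after AGO2 KD, and 16.3% and 0% after LaminB KD. These were the 2 Pol III genes lower in both AGO2 KD libraries. Polr3F, of the same trimer, showed how far replicates could part, with 100% in both mock libraries but 0% and 100% in AGO2 KD. Polr3G, the third member of that trimer, stayed at 100% in every library except LaminB KD replicate 2, at 90.5%. Polr3D and Polr3E, which form a heterodimer related to TFIIF, had 51.1% and 100% and 100% and 100% in mock, and 73.1% and 90.3% and 71.7% and 100% in AGO2 KD. Polr3B, the second large subunit, had 12.4% and 19.9% in mock and spanned both values in AGO2 KD, at 4.83% and 35.2%.

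In the TFIID genes, Taf10 (chr2L:2767890-2768612) and Taf5 (chr2R:10877312-10879673) were separated most. Taf10, a histone-fold subunit, had 80.5% and 100% in mock cells, 31.4% and 34.4% after AGO2 KD, and 100% and 0% after LaminB KD. Its divergent paralog Taf10b had 82.5% and 77.7% in mock and 70.4% and 73.4% in AGO2 KD. The single region over both starts thus reached less far into Taf10 in AGO2 KD and only a little less far into Taf10b. Taf5, a core subunit with WD40 repeats, had 97.3% and 100% in mock cells, 25.2% and 66.3% after AGO2 KD, and 100% and 29.1% after LaminB KD. Taf3, whose mammalian counterpart reads a histone mark of active promoters, had 16.0% and 25.6% in mock and 4.35% and 13.0% in AGO2 KD, and Taf1, the largest subunit, had 24.1% and 22.8% against 7.03% and 21.2%. Taf9 and Taf13, histone-fold subunits, were at 100% in both mock libraries but at 34.6% and 100% and at 34.8% and 100% in AGO2 KD, so replicate 1 alone was low. Taf11, the partner of Taf13, had 36.6% and 100% in mock against 25.7% and 100%, a spread between replicates wider than the distance between the group means. Taf4 had 28.4% and 56.5% in mock and 18.1% and 30.7% in AGO2 KD, an overlap of both ranges. Taf6, the partner of Taf9, had 22.7% and 21.5% against 15.1% and 35.5%, and Taf2, which contacts the initiator, had 13.9% and 17.3% against 11.2% and 15.0%. Taf7, Taf8 and Taf12 likewise overlapped between mock and AGO2 KD.

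Of the general factor genes, TfIIA-S and TfIIEalpha were wholly covered in all 6 libraries. TfIIFalpha (chr3R:6380467-6382604), the large subunit of TFIIF, had 100% in both mock libraries, 85.8% and 81.9% after AGO2 KD, and 100% and 82.2% after LaminB KD. TfIIB, which joins the polymerase to the promoter complex, had 35.7% and 61.0% in mock cells, 21.5% and 28.6% after AGO2 KD, and 62.5% and 20.7% after LaminB KD. TfIIFbeta, the small TFIIF subunit, had 69.3% and 80.1% in mock and 59.3% and 64.4% in AGO2 KD. TfIIA-L, the gene of the large TFIIA subunits, had 37.6% and 56.2% in mock and 35.2% and 39.7% in AGO2 KD, which overlapped. TfIIS, an elongation factor that restarts stalled polymerase, varied little, between 66.9% and 77.8%. TfIIEbeta was an exception to the near-complete occupancy: it had 79.9% in mock replicate 2 and 82.3% in LaminB KD replicate 1, and 0% in the other 4 libraries. Those 2 libraries had the most covered sequence of the 6. The read depth is unknown, and a gene without a called region cannot be said to lack Pol II S5.

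MED genes, the largest family, supplied the largest number of genes lower in AGO2 KD, 10 of 25 (40%). The share was 33.3% for both Taf and TfII genes and 23.8% for all protein-coding genes. It was 44.4% for genes with a promoter peak in all 6 libraries. MED27 (chr3R:5655139-5656336) had 100% in both mock libraries, 46.7% and 49.7% after AGO2 KD, and 100% and 0% after LaminB KD. One region of 2693 or 8802 bp spanned it in mock, and in each AGO2 KD library it was replaced by a region of 795 or 776 bp at the start and another over the 3′ end. MED15 (chr2L:473013-476170) had 52.6% and 56.3% in mock cells, 9.18% and 22.8% after AGO2 KD, and 80.3% and 0% after LaminB KD. MED14, the backbone of Mediator, had 51.4% and 45.5% in mock and 23.0% and 30.6% in AGO2 KD. MED8, in the head module that contacts Pol II, had 100% in both mock libraries and 85.2% and 83.8% in AGO2 KD. MED26, a subunit that in mammals recruits elongation factors, had 11.5% and 11.9% in mock and 3.68% and 2.47% in AGO2 KD. MED20 (chr2L:8071812-8072848), also a head subunit, had 21.7% and 40.5% in mock cells, 0% in both AGO2 KD libraries, and 100% and 0% in LaminB KD. The region near its start began inside Trf in both AGO2 KD libraries. MED22, a head subunit, was at 100% in all but LaminB KD replicate 2, where it was at 33.4%. MED11, MED28, MED30 and MED31 were the other MED genes below mock in both AGO2 KD libraries, the last by less than 1 percentage point between the nearest libraries. Subunits of the middle module, which joins head and tail, mostly overlapped. MED10 had 78.8% and 94.5% in mock against 81.8% and 85.0%, MED7 had 85.9% and 77.1% against 79.8% and 83.3%, and MED9 had 79.5% and 100% against 79.2% and 100%. MED23, a tail subunit and the least covered of the 25 MED genes in mock, had 4.33% and 11.5% in mock against 0% and 4.66%.

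In AGO2 KD against mock, 25 of 79 members (31.6%) had a covered share below both mock libraries in both knockdown libraries, against 23.8% of all protein-coding genes, and 0 had a share above both, against 0.251%. The 25 were 10 MED, 5 Taf, 4 Polr2, 3 TfII, 2 Polr3 and 1 Polr1 gene. The exact two-sided permutation test of 2 libraries against 2 has 6 labelings and a smallest p of 0.3333, so it could not reach 0.05 for any gene, and nothing in the labels says that the replicates came from separate cultures. For Polr1E the means were 76.6% ± 9.13 in mock and 22.1% ± 0.553 in AGO2 KD (SD, n = 2), a difference of −54.5 percentage points. For MED27 the difference was −51.8 points, for Taf10 −57.3, for Taf5 −52.9, for Polr2B −39.1 and for MED15 −38.5. The median difference over the members was −7.97 points, against 0 over all protein-coding genes and −4.26 over genes with a promoter peak in all 6 libraries.

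The background depends on which genes are counted, because a gene with no peak in mock cannot be lower. Among the 5559 genes with a promoter peak in all 6 libraries, 44.4% were lower in AGO2 KD, but only 14 of the 60 members in that set (23.3%), and 0 members were higher against 0.450%. The members' share was also below the background among genes shorter than 2000 bp (8 of 36, 22.2%, against 35.8%) and among longer ones (6 of 24, 25.0%, against 48.6%). Wholly covered genes in all libraries cannot be called either, and 5 members were at least 95% covered in all 6. The AGO2 KD lists also covered less sequence, 5.57 and 8.01 Mb against 8.27 and 10.5 Mb in mock. When each list was trimmed to its highest-scoring regions with the same covered length, 8 members were lower (10.3% of all genes) and 7 higher (2.95%), so the one-sided direction was not kept at equal length. Ranked within each library among the 5559 genes, 7 of 60 members were lower (11.5% of that set) and 22 higher (36.9%). By the promoter fold percentile, 11 of 60 were lower (18.3%, against 21.5% of that set) and 13 higher (21.7%, against 15.7%).

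Polr1E was the only member with a promoter peak in both mock libraries and in neither AGO2 KD library. Its region came from beyond the 3′ end of the gene and covered the start base in no library. The share of all genes with this pattern was not computed. Without the first 500 bp, in genes of at least 1000 bp, 14 of 55 members were lower in AGO2 KD against 19.9% of such genes. Of the 25 lower members, 11 were separated from mock by at least 10 percentage points between the nearest libraries. The share of all protein-coding genes separated that far was not computed.

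**Figure D5:**
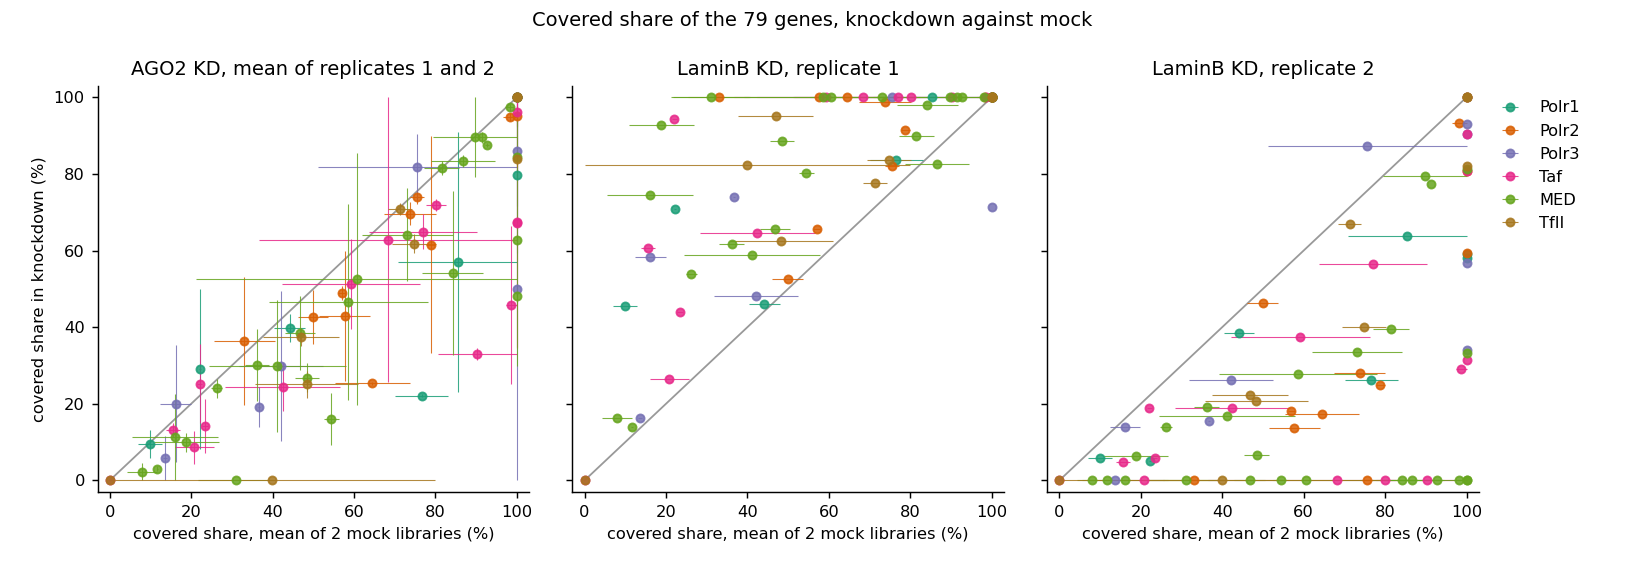
Covered share of the 79 genes in each knockdown (vertical, percent) against the mean of the 2 mock libraries (horizontal, percent), with bars from the lower to the higher replicate and the diagonal marking equality. In AGO2 KD 25 genes have both knockdown values below both mock values and none above, and the LaminB KD replicates lie mostly on opposite sides of the diagonal.

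In LaminB KD against mock, replicate 1 lay above both mock libraries at 44 members and replicate 2 below both at 67. The matching shares of all protein-coding genes were not computed, and these lists covered the most and the least sequence, 14.6 and 4.19 Mb. With both replicates required, 1 member was lower (1.30% of all protein-coding genes) and 0 higher (0.158%). The lower member was Polr3I (chrX:16884581-16886612), a stalk subunit of Pol III, with 100% in both mock and both AGO2 KD libraries and 71.4% and 56.7% in LaminB KD. One region of 4149 or 5022 bp ran over its start and that of the divergent Nprl2, 216 bp away, in mock. In LaminB KD replicate 1 that region was interrupted from 16884438 to 16885163 and in replicate 2 from 16884326 to 16885460, so that its start base was covered in neither. Leaving out replicate 2 turned the median difference over the members from −4.73 to 8.60 percentage points, with 44 members higher, and leaving out replicate 1 made it −21.7 with 67 lower. By the promoter fold percentile, 5 of 60 members were lower (8.33%, against 15.6% of the 5559 genes with a promoter peak in all 6 libraries). By the same measure 19 were higher (31.7%, against 16.5%). The mock libraries served both comparisons.

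The Mediator genes were the ones that most often lacked a promoter peak in LaminB KD replicate 2. Of the genes with one in both mock libraries and in LaminB KD replicate 1, 18.2% of 6911 lacked it in replicate 2, and 16 of 76 members (21.1%). These were 10 of 25 MED genes, 3 of 14 Taf, 2 of 7 Polr1, 1 of 10 Polr3, none of 13 Polr2 and none of 7 TfII. MED11, MED15, MED20, MED21, MED26, MED28, MED30 and MED4 had a promoter peak in the other 5 libraries, as did Polr1C, Polr3C, Taf10, Taf10b and Taf3. MED16 and MED24, tail subunits, lacked it in AGO2 KD replicate 1 as well. MED4 (chr3L:7249529-7250527), a middle module subunit, shows the size of the replicate difference, with 97.0% and 99.4% in mock cells, 96.5% and 98.3% after AGO2 KD, and 100% and 0% after LaminB KD. Replicate 2 was the library with the fewest and narrowest regions, with a mean width of 821 bp against 1711 bp in replicate 1. Within 1500 bp of a start, 68 members had a peak in it. The part of this library's shorter list in the missing peaks was not tested.

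Other genes of the pathway whose symbols lie outside the naming rule numbered 37 in the list used. All 37 had a promoter peak in both mock libraries, against 50.0% and 51.8% of all protein-coding genes in replicates 1 and 2. In all 6 libraries 31 had one, against 39.8% of all protein-coding genes. In AGO2 KD 14 of the 37 were lower, beside 23.8% of all protein-coding genes and 44.4% of those with a promoter peak in all 6 libraries, and 0 were higher, with a median difference of −13.6 points, and in LaminB KD 0 were lower and 0 higher. Tbp, the TATA-binding protein, was wholly covered in 5 libraries and at 86.8% in LaminB KD replicate 2. CycH, the cyclin of the TFIIH kinase, had 100% in both mock libraries and 21.4% and 58.3% in AGO2 KD, and Cdk8, the Mediator kinase, had 97.0% and 99.7% against 28.2% and 75.9%. Both were lower in both AGO2 KD libraries, but the replicates of AGO2 KD lay far apart. The long Mediator kinase module genes kto and skd were thinly covered, at 4.87% and 15.9% and at 3.68% and 6.04% in mock. Spt5, a pausing factor, had 53.9% and 36.8% in mock and 14.6% and 49.1% in AGO2 KD, and Cdk9, the kinase that releases paused polymerase, had 18.3% and 58.6% against 16.3% and 60.4%, both overlapping.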

How the data were processed

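ChIP-seq of Pol II S5 was analysed in the 6 immunoprecipitated libraries. The authors trimmed reads with cutadapt 1.10, aligned them to dm6 with bowtie2, removed low-quality alignments and Picard 2.11.0 duplicates, and called broad regions with MACS2 2.1.1.20160309 in each replicate separately against its input. The deposited columns are a score (10 times the −log10 q-value, truncated), a fold ratio of immunoprecipitate to local background, and −log10 p-value and q-value. They hold no read counts, so the depth is unknown and the authors' DiffBind test on reads was not run. Depth and immunoprecipitation quality therefore affect how many regions were called and how wide they are.

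Genes came from Ensembl BDGP6.54, on chromosome arms 2L to 3R and on 4, X and Y. Covered share, promoter peaks and fold percentiles were computed with Python 3.11.15, pandas 2.3.3 and numpy 2.4.6. A gene was lower (or higher) when both knockdown libraries lay below (or above) both mock libraries. Covered share and promoter peaks were tested on simulated peak lists. The call rule was tested only on simulated shares, with a shift so large that every shifted gene had to be called. False calls were not counted. Named genes were all Polr2 genes, the widest-separated members of each other family, those at 0% or at least 95% in all libraries, and those with a promoter peak in only some. Others were named after their values were seen. The members and lists were chosen with earlier results of these data known. Promoter sequences were read from the genome, as RefSeq gives it. The marker list of germline genes held 1 gene with a promoter peak in all 6 libraries, nanos, of which 0% was covered. The values of 1 member and the sequence of another are not reported here.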

Additional observations from a re-analysis of the deposited data

How the results depend on the processing

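The AGO2 KD count of 25 lower members (23.8% of all genes) was 27 with peaks of q at or below 0.01 (23.3%). It was 23 with equal peak numbers (22.1%) and 8 at equal covered length (10.3%). In gene bodies it was 14 of 55 (19.9% of such genes). Among genes with a promoter peak in all 6 libraries it was 14 of 60 (44.4% of that set). By rank within library it was 12 (6.23% of all genes). By rank among genes with a promoter peak in all 6, chosen after seeing the data, it was 7 of 60 (11.5%). With a gap of at least 10 points it was 11, and it was 13 of the 40 members that overlap no other gene. The share of all genes was not computed for the gap, the overlap or leaving out 1 library. The ranks within library are moved by ties at 0, since 67.5% of all genes came out higher. Leaving out 1 library gave 27 to 60, with 60 without AGO2 KD replicate 2 and 48 without mock replicate 1. The higher count of 0 became 7 at equal covered length (2.95% of all genes) and 0 to 7 when 1 library was left out. By the 2 rankings it was 28 (67.5% of all genes) and 22 of 60 (36.9% of genes with a promoter peak in all 6). The median difference, −7.97, ranged from −14.1 to 0 without single libraries and was 0 at equal covered length.

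The LaminB KD counts of 1 lower and 0 higher became 9 and 1 at equal covered length (4.77% and 1.45% of all genes), 20 and 11 by rank within library (10.1% and 9.91%), and 14 and 7 of 60 by rank among genes with a promoter peak in all 6 (16.2% and 15.1%). Equal peak numbers gave 1 higher (0.537% of all genes). The members that overlap no other gene gave 0 lower, for which the share of all genes was not computed. Leaving out 1 library gave 1 to 67 lower and 0 to 44 higher, for which the share of all genes was not computed. The median difference then ranged from −21.7 to 8.60 and reversed without LaminB KD replicate 2. The mean number of members with a promoter peak, 76.5 in mock, 74 in AGO2 KD and 68.5 in LaminB KD, was 21.5, 36 and 36.5 at equal covered length. At equal covered length the mock libraries had 24 and 19 of 79 members with one, against 26.6% and 23.0% of all protein-coding genes. AGO2 KD then had 43 and 29, against 33.8% and 27.0%. LaminB KD had 13 and 60, against 19.4% and 40.6%, and its lists kept 1759 and 5108 regions. The group means were 65.5, 57.5 and 50.5 for the start base alone and 77, 75.5 and 72.5 within 1500 bp. The AGO2 KD differences that reversed were those of Polr2E (94.8 points), Polr3A (7.04) and TfIIB (25.0) at equal covered length and of MED11 (8.27) and MED15 (0.855) at equal peak numbers; the cause was not tested. No 2 regions of a library lay under 500 bp apart, so joining them moved nothing.

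The labels tie same-numbered replicates of different groups by number only. Over 7791 genes their deviations correlated at 0.223 between mock and AGO2 KD and at −0.376 between mock and LaminB KD. Between AGO2 KD and LaminB KD the correlation was −0.460. Replicate 2 covered more sequence than replicate 1 in mock and AGO2 KD but less in LaminB KD. These correlations therefore cannot tell whether same-numbered replicates were handled together. With a replicate block, 44 members were lower in AGO2 KD (33.9% of all genes) and 1 in LaminB KD (1.70%). Crossed pairs, added after seeing the data, gave 4 lower and 1 higher in LaminB KD. The share of all genes was not computed for crossed pairs. Unknown read depth limits all of these values.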

Other observations

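The testis paralogs of TAFs, which lie outside the naming rule, split in these cells. No promoter peak was found in any library for nht, can or sa, which encode testis-specific TAFs that act in spermatocytes, as for Taf12L among the members. The fourth, mia, had a promoter peak in all 6 libraries, with a covered share of 11.8% and 34.3% in mock cells, 7.92% and 11.9% after AGO2 KD, and 31.1% and 7.99% after LaminB KD, which overlap. Their somatic relatives Taf4, Taf5, Taf6 and Taf8 each had a promoter peak in all 6 libraries.

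Among the genes of elongation control, hyx, a subunit of the Paf1 complex, had 64.1% and 67.1% in mock and 51.4% and 50.8% in AGO2 KD, with replicates close together in both groups. Brf, a Pol III initiation factor, had 16.2% and 10.4% in mock and 2.37% and 2.62% in AGO2 KD. Tfb4 and Tfb5, small subunits of TFIIH, were wholly covered in all 6 libraries. These genes were chosen after their values were seen.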
